A study of Mus musculus with 10 samples.

Results

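Lipid droplets are the cell's store of neutral fat, a core of triacylglycerol and sterol esters under a single layer of phospholipid that is coated by proteins. The transcripts of 10 genes of this organelle were followed here in the failing mouse heart: the droplet fusion genes *Cidea* and *Cidec*, the perilipin coat genes *Plin1*, *Plin2*, *Plin3*, *Plin4* and *Plin5*, the triacylglycerol lipase gene *Pnpla2*, and the diacylglycerol acyltransferase genes *Dgat1* and *Dgat2*. They are 10 of the 57185 genes with values in the count table, and they were taken by name. *Cidea* was chosen because of its difference between the genotypes compared here, so its values are a description and carry no test. The other 9 members were named for their role at the droplet, with earlier results of these data known.

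Polyadenylated RNA of the apical part of the ventricle (labelled as left ventricle) was sequenced from 5 MLPKO and 5 MLPKO-cRADKO male mice, each giving 1 library. *Csrp3*, which encodes muscle LIM protein, is knocked out in all tissues of MLPKO mice, and the ventricle of these mice dilates and fails as in dilated cardiomyopathy. In this study both groups also carried floxed alleles of *Rrad*, the gene for RAD, a GTPase that restrains the L-type calcium channel. MLPKO-cRADKO mice (cRADΔ/Δ-MLPKO in the study) carried in addition the MYH6-MerCreMer transgene, which makes a tamoxifen-dependent Cre recombinase in cardiomyocytes, so that *Rrad* is deleted in these cells. All mice of both groups received tamoxifen once at 10 weeks of age (100 mg/kg, intraperitoneal), and hearts were taken 1 month later, at an age that the labels give as 16 weeks. The controls had no Cre, so that deletion of *Rrad* and activity of Cre itself cannot be told apart.

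Total counts lay between 33457406 and 49965101 per mouse. Leaving out genes with Gm or Rik names, 13454 genes had more than 10 counts in at least 6 of the 10 mice and were tested. *Rrad* averaged 223 CPM (counts per 1000000 counts of the library) in MLPKO and 171 in MLPKO-cRADKO (log2 fold change −0.38, edgeR adjusted *P* = 0.290), and *Csrp3* averaged 1776 and 840 CPM (−1.08, edgeR adjusted *P* = 0.0666). Both transcripts were thus counted in all mice, and the count of a whole gene does not show which exons were read. On the first principal component, which held 35.3% of the variance, MLPKO mouse 2 lay at 55.7 and the other 9 mice between −24.0 and 22.5. MLPKO-cRADKO mouse 3 stood apart by transcripts of fat cells, as described below.

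In cardiomyocytes, droplets sit beside mitochondria and buffer the large flow of fatty acids that fuels the beating heart. Acyltransferases make triacylglycerol at the endoplasmic reticulum and on the droplet, perilipins control the access of lipases to it, and proteins of the CIDE family tie droplets together and pass lipid from the smaller to the larger one. White fat cells use PLIN1 and CIDEC (FSP27) for this, brown fat cells add CIDEA, and oxidative muscle uses chiefly PLIN5 and PLIN2.

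Among these genes, *Cidea* was the one whose transcript was lower in every MLPKO-cRADKO mouse than in every MLPKO mouse. The transcripts of the coat, lipase and acyltransferase genes overlapped between the genotypes, and the transcripts of *Cidec* and *Plin1* were nearly absent except in a single heart. Of the 8 members with enough counts for the fit, 1 was called at an edgeR adjusted *P* under 0.05 and had no overlap between the genotypes, and it was *Cidea*. Over all genes tested, 2.74% were called, 1.8% as lower and 0.944% as higher in MLPKO-cRADKO, and 6.62% had no overlap. Of these 13454 genes, 2899 had an unadjusted edgeR *P* under 0.05, and DESeq2 called 1298. Because *Cidea* was chosen by this contrast, nothing is read from the count of members called.

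*Cidea* (ENSMUSG00000024526, chromosome 18, 67476317 to 67501224, plus strand, GRCm39) had 23.5, 27.3, 28.0, 24.8 and 28.8 CPM in MLPKO mice 1 to 5. In MLPKO-cRADKO mice 1 to 5 it had 18.6, 14.8, 16.2, 15.8 and 16.9 CPM. The highest MLPKO-cRADKO mouse lay below the lowest MLPKO mouse, and the mice of each genotype lay close together. The means were 26.5 ± 2.23 CPM (SD, n = 5) in MLPKO and 16.5 ± 1.44 CPM (SD, n = 5) in MLPKO-cRADKO, a ratio of 0.622. The fitted log2 fold change was −0.69 (standard error 0.08, 95% interval −0.86 to −0.51), and it lay between −0.73 and −0.65 when each mouse was left out in turn. These values rest on 862 to 1419 reads per mouse in MLPKO and 594 to 747 in MLPKO-cRADKO. An antisense gene, *B430212C06Rik*, overlaps *Cidea* on the other strand and had 17 to 38 counts per mouse. The strand setting of the counting is not given in the sources used here, so that reads of the overlap cannot be told apart.

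**Figure D1:**
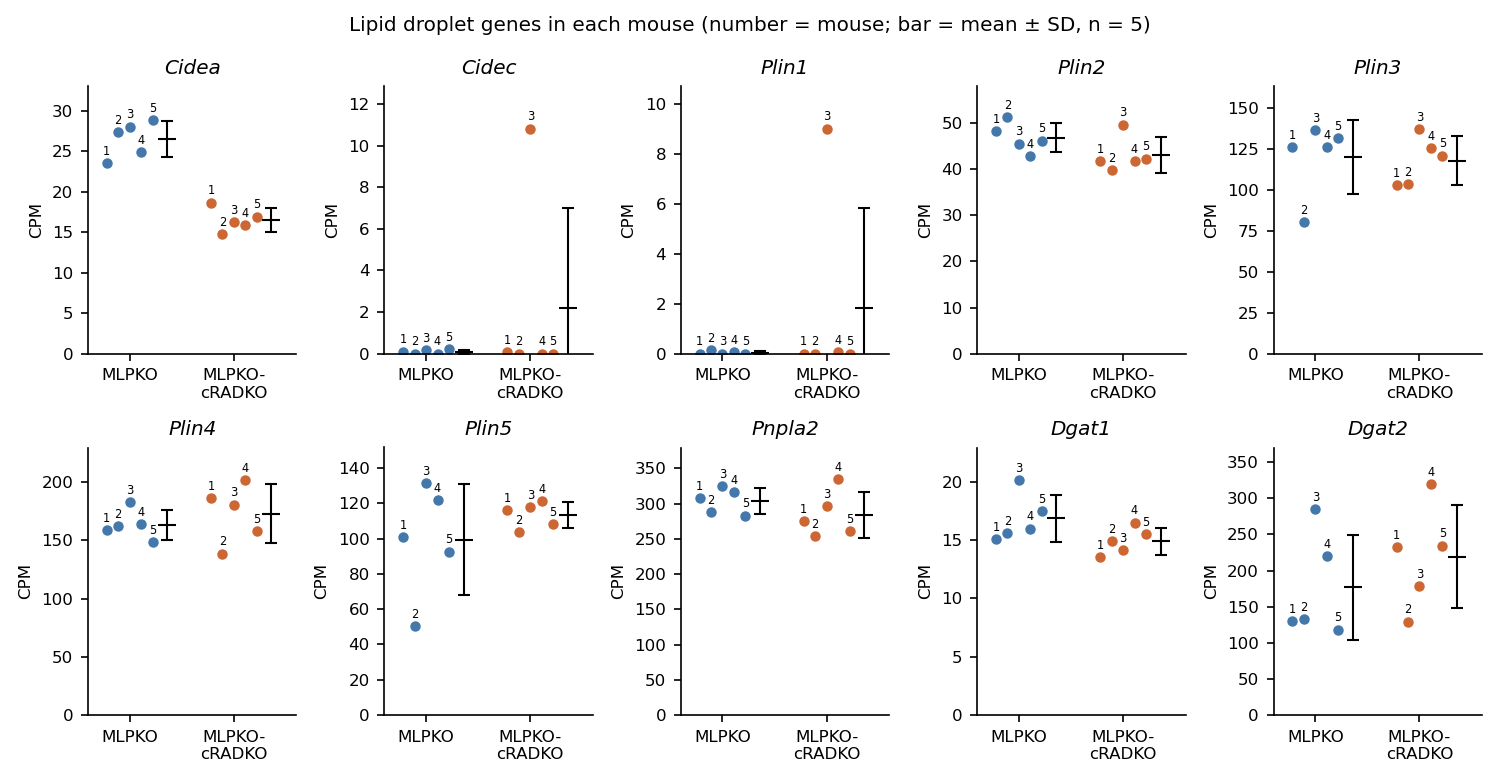
CPM (vertical axis) of the 10 lipid droplet genes in each of 5 MLPKO mice (blue) and 5 MLPKO-cRADKO mice (orange), with the mouse number above each point and the mean ± SD (n = 5) as a bar that is cut off at 0. *Cidea* lies between 23.5 and 28.8 CPM in MLPKO and between 14.8 and 18.6 CPM in MLPKO-cRADKO, while *Cidec* and *Plin1* are raised in MLPKO-cRADKO mouse 3 alone and the other members overlap.

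Other transcripts moved with genotype in the same libraries. The 6 cardiomyocyte markers summed to 51400 to 60070 CPM in MLPKO and to 38320 to 50730 CPM in MLPKO-cRADKO, with 5 of the 6 lower and 1, *Tnnt2* (cardiac troponin T), called at a log2 fold change of −0.57 (edgeR adjusted *P* = 0.0185, and 0.0590 without MLPKO-cRADKO mouse 5). Without adjustment 4 of the 6 had an edgeR *P* under 0.05, and DESeq2 called 3 and limma-voom 1. *Actn2* was lower without overlap between the genotypes (−0.43, edgeR adjusted *P* = 0.054). In bulk tissue, fewer cells of a type and less RNA per cell cannot be told apart. Per 10000 CPM of these markers, *Cidea* averaged 4.76 ± 0.350 CPM (SD, n = 5) in MLPKO and 3.67 ± 0.539 CPM (SD, n = 5) in MLPKO-cRADKO, a ratio of 0.770. The ranges were 4.33 to 5.27 and 3.08 to 4.24, and they describe a gene that was chosen by this contrast. *Myh6*, at 36500 and 29890 CPM, made up most of the marker sum. The 5 endothelial markers summed to 602 to 690 CPM in MLPKO and to 714 to 824 CPM in MLPKO-cRADKO, with all 5 higher and *Tek*, an angiopoietin receptor, called (log2 fold change 0.32, edgeR adjusted *P* = 0.0196, and 0.0546 without MLPKO mouse 5). Without adjustment all 5 endothelial markers had an edgeR *P* under 0.05, and DESeq2 called 2 and limma-voom 1. All 6 macrophage markers were higher, with a median log2 fold change of 0.61 and 0 called by edgeR (6 with unadjusted *P* under 0.05, 4 called by DESeq2 and 0 by limma-voom), and summed to 66.8 to 103 CPM against 87.2 to 159 CPM. The 5 fibroblast markers (median −0.02), the 3 tested of 7 skeletal muscle markers (median −0.03) and the 3 tested of 5 atrial markers (median 0.15) had 0 calls by edgeR, DESeq2 and limma-voom, and 0, 0 and 1 genes with an unadjusted edgeR *P* under 0.05. Summed over each list, skeletal muscle markers reached 2.99 CPM at most, and atrial markers lay between 109 and 2440 CPM in MLPKO and between 148 and 438 CPM in MLPKO-cRADKO. Nearly all of that sum was *Nppa*, the natriuretic peptide gene that the stressed ventricle also makes, at 1102 and 266 CPM (log2 fold change −2.05, edgeR adjusted *P* = 0.124), while *Myl4* was at 0.88 and *Myl7* at 0.15. The part of these cell types in the difference of *Cidea* was not tested.

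*Cidec* (chromosome 6, 113400691 to 113412721, minus strand), the close relative of *Cidea* that drives the growth of the single large droplet of white fat cells, had raw counts of 4, 0, 8, 0 and 10 in MLPKO mice 1 to 5. In MLPKO-cRADKO mice 1 to 5 its counts were 2, 0, 396, 0 and 0. *Plin1* (chromosome 7, 79369966 to 79382718, minus strand), the perilipin that guards the droplet of fat cells, had counts of 0, 4, 0, 2 and 0 in MLPKO and of 0, 0, 330, 2 and 0 in MLPKO-cRADKO. Both genes were thus at or near 0 in 9 hearts and clearly counted in 1, MLPKO-cRADKO mouse 3, where they reached 10.8 and 9.01 CPM. Neither passed the filter, and no genotype difference is given for them. The third member of the CIDE family, *Cideb*, known from liver, had 0 to 9 counts per mouse.

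The same heart carried the markers of fat cells. Of the 8 adipocyte markers none passed the filter, and their summed level was 111 CPM in MLPKO-cRADKO mouse 3 against 0 to 1.46 CPM in the other 9 mice. In that heart *Cfd* (adipsin) had 2232 counts, *Car3* (carbonic anhydrase 3) 1509, *Adipoq* (adiponectin) 216, *Retn* (resistin) 86 and *Lep* (leptin) 8. The markers of brown and beige fat, *Ucp1*, *Elovl3* and *Otop1*, were at 0 in it. *Cidea* did not share this pattern. It stood at 16.2 CPM in that mouse, inside the range of the other 4 MLPKO-cRADKO mice (14.8 to 18.6 CPM), and the 2 mice with 0 counts for all 8 markers had 27.3 CPM (MLPKO mouse 2) and 14.8 CPM (MLPKO-cRADKO mouse 2, the lowest of its genotype). *Plin2* was at 49.7 CPM in MLPKO-cRADKO mouse 3, above the 39.8 to 42.4 CPM of the other 4 mice of its genotype.

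**Figure D2:**
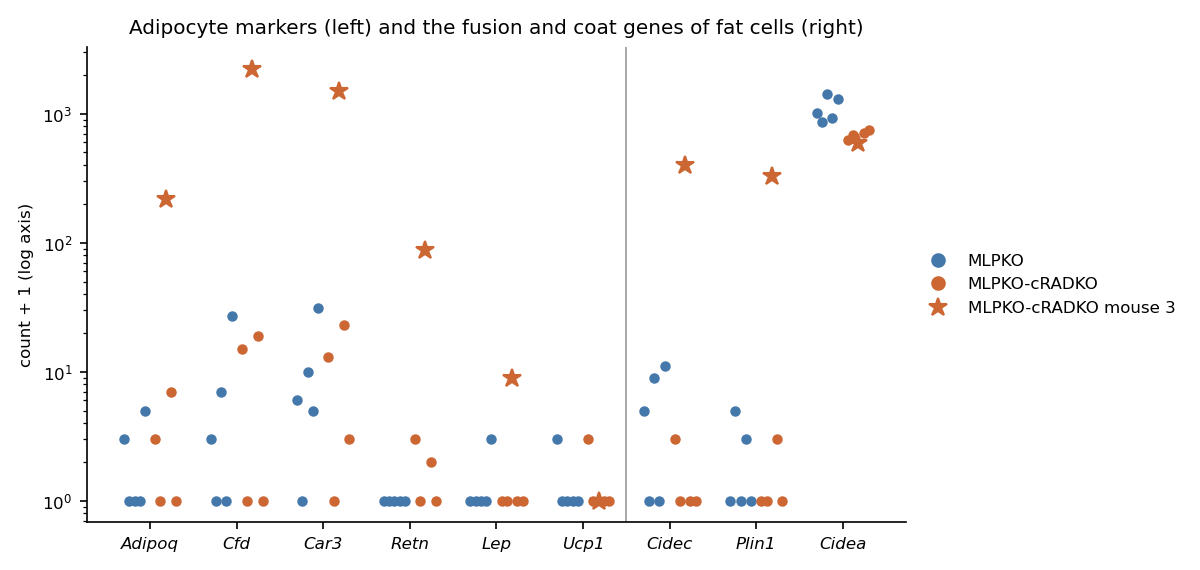
Raw counts plus 1 (vertical axis, logarithmic) of 6 adipocyte markers (left of the line) and of *Cidec*, *Plin1* and *Cidea* (right of the line) in each MLPKO mouse (blue circles) and MLPKO-cRADKO mouse (orange circles), with MLPKO-cRADKO mouse 3 as a star. The star is far above all other mice for *Adipoq*, *Cfd*, *Car3*, *Retn*, *Cidec* and *Plin1*, is at 0 counts for *Ucp1*, and for *Cidea* has 594 counts, close below the 623 to 747 of the other 4 MLPKO-cRADKO mice (16.2 CPM against 14.8 to 18.6 CPM once scaled to library size).

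How far each member followed the fat cell markers within a genotype was measured over the 10 mice, on log2 CPM from which the mean of each genotype had been taken, and does not use the contrast that chose *Cidea*. Of the 10 members, 1 passed (two-sided exact permutation test of mice within genotype, adjusted over 10 members). *Cidec* had Pearson's *r* = 0.900 (permutation *P* = 0.00167, adjusted *P* = 0.0167) and Spearman's rho = 0.8 (permutation *P* = 0.005, adjusted *P* = 0.05). Without the 2 mice farthest from the median of the marker level, MLPKO-cRADKO mice 2 and 3, its *r* was 0.694 (permutation *P* = 0.0556, adjusted *P* = 0.517). The relation of *Cidec* thus did not pass without them, and *Cidec* had at most 10 counts in any mouse but MLPKO-cRADKO mouse 3. No member passed when MLPKO mouse 1, MLPKO mouse 3 or MLPKO-cRADKO mouse 3 was left out. *Plin1* had *r* = 0.741 (adjusted permutation *P* = 0.368) and rho = 0.429, with *r* = −0.462 without the 2 mice. *Cidea* had *r* = 0.183 (permutation *P* = 0.651, adjusted *P* = 0.814) and rho = 0.394 (permutation *P* = 0.283, adjusted *P* = 0.387), and *r* = 0.173 without the 2 mice. The other 7 members had *r* between −0.054 and 0.598 and adjusted permutation *P* of 0.0962 or more.

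Per base of annotated exon, the droplet genes of these hearts ranked from lipase to fat cell coat. The length joined all annotated exons of a gene, 2238 bases for *Cidea* and 7684 for *Plin2*, so that the order depends on the annotation. In TPM (counts per base of exon, scaled to 1000000 in each mouse, as mean ± SD over the 10 mice), *Pnpla2* stood first at 232 ± 26.0, above *Plin5* at 107.5 ± 23.7 in all 10 mice and without overlap. *Plin5* and *Dgat2* (101.5 ± 36.9) did not differ beyond their spread, as *Plin5* was the higher in 5 of 10 mice. *Plin4* (65.3 ± 8.11) and *Plin3* (50.6 ± 8.57) came next, and *Plin4* was above *Plin3* in all 10 mice although their ranges overlapped. *Cidea*, at 29.9 ± 8.28 TPM, was above *Plin2* (18.2 ± 2.10) in all 10 mice. Its mean was 37.3 ± 3.39 TPM (SD, n = 5) in MLPKO and 22.4 ± 1.90 TPM (SD, n = 5) in MLPKO-cRADKO, so that the sixth place held in both genotypes. In CPM *Plin2* was the higher, with means of 46.9 and 43.1 in MLPKO and MLPKO-cRADKO against 26.5 and 16.5 for *Cidea*. The lowest *Cidea* value, 19.6 TPM, lay within the range of *Plin2*, 15.4 to 21.2 TPM. *Dgat1* followed at 10.8 ± 1.53 TPM, below *Plin2* without overlap, and *Cidec* and *Plin1* came last with means of 1.18 and 0.468 TPM that a single mouse carried.

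**Figure D3:**
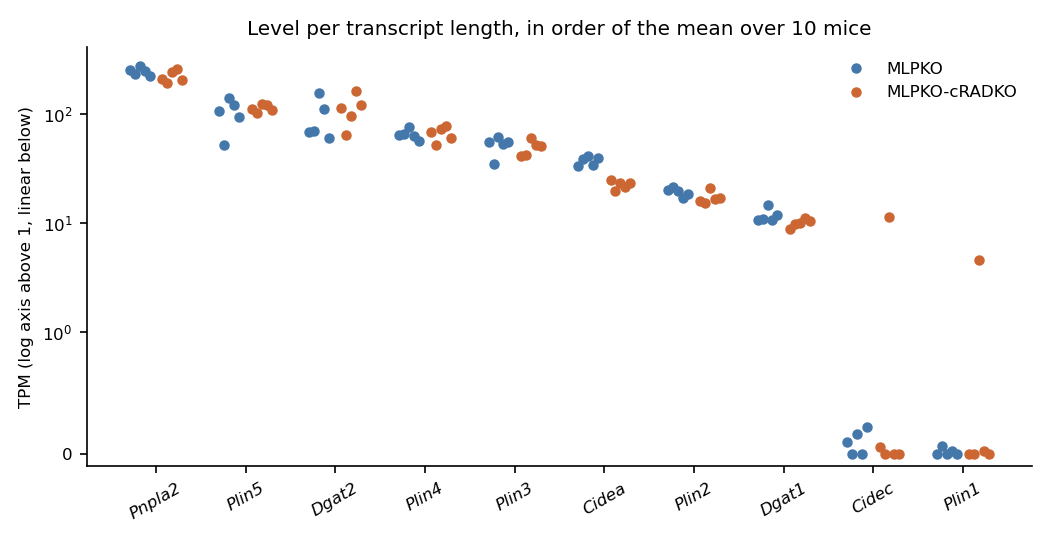
Level per base of exon (TPM, vertical axis, logarithmic above 1 and linear below) of the 10 genes, ordered by the mean over the 10 mice. Points are 5 MLPKO mice (blue) and 5 MLPKO-cRADKO mice (orange). Levels run from 232 TPM for *Pnpla2* to 10.8 TPM for *Dgat1*, with *Cidea* sixth, and *Cidec* and *Plin1* lie near 0 in all mice but one.

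The perilipins that muscle cells make were next. *Plin5* (chromosome 17, 56418446 to 56424610, minus strand) tethers droplets to mitochondria and holds back lipolysis. It had 101, 50.3, 131, 122 and 92.6 CPM in MLPKO mice 1 to 5 and 116, 104, 118, 121 and 108 CPM in MLPKO-cRADKO mice 1 to 5. The 5 MLPKO-cRADKO mice lay close together, inside the wider range of MLPKO, in which mouse 2 was lowest. The log2 fold change was 0.19 (standard error 0.20, 95% interval −0.24 to 0.62, edgeR adjusted *P* = 0.625), and the coefficient of variation was 31.7% in MLPKO and 6.47% in MLPKO-cRADKO. Without MLPKO mouse 2 the log2 fold change was 0.0227 and the coefficient of variation in MLPKO 16.1% (n = 4), and without MLPKO mouse 3 the log2 fold change was 0.32.

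*Plin4* (chromosome 17, 56406617 to 56416931, minus strand), a coat protein with a long repeat of amphipathic helices, lies beside *Plin5* and overlaps *Hdgfl2* on the other strand. It had 159, 162, 183, 164 and 148 CPM in MLPKO and 186, 138, 181, 202 and 158 CPM in MLPKO-cRADKO. The lowest and the highest of the 10 mice were both MLPKO-cRADKO, and the log2 fold change was 0.08 (standard error 0.10, 95% interval −0.13 to 0.30, edgeR adjusted *P* = 0.672). It was 0.16 without MLPKO-cRADKO mouse 2 and 0.0264 without MLPKO-cRADKO mouse 4.

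*Plin2* (chromosome 4, 86565912 to 86588459, minus strand) coats droplets in most cell types and is known to be degraded when not bound to lipid. It had 48.4, 51.3, 45.6, 42.8 and 46.2 CPM in MLPKO and 41.8, 39.8, 49.7, 41.9 and 42.4 CPM in MLPKO-cRADKO. The genotypes overlapped, as MLPKO-cRADKO mouse 3, which carried the fat cell markers, lay inside the range of MLPKO. The next highest MLPKO-cRADKO mouse, at 42.4 CPM, was close to the lowest MLPKO mouse, at 42.8 CPM. With all mice the log2 fold change was −0.12 (standard error 0.07, 95% interval −0.28 to 0.04, edgeR adjusted *P* = 0.357), and without MLPKO-cRADKO mouse 3 it was −0.17 (edgeR adjusted *P* = 0.178).

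*Plin3* (chromosome 17, 56584218 to 56599873, minus strand), a cytosolic coat protein that binds nascent droplets, had 126, 80.2, 136, 126 and 132 CPM in MLPKO and 103, 103, 137, 125 and 121 CPM in MLPKO-cRADKO. The genotypes overlapped, as MLPKO mouse 2 was the lowest of all and MLPKO-cRADKO mouse 3 the highest. The log2 fold change of −0.03 (standard error 0.14, 95% interval −0.32 to 0.27, edgeR adjusted *P* = 0.933) had no stable sign. It was −0.14 without MLPKO mouse 2 and 0.03 without MLPKO mouse 3. Without both MLPKO mouse 2 and MLPKO-cRADKO mouse 3 it was −0.20 (edgeR adjusted *P* = 0.203).

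*Pnpla2* (chromosome 7, 141034404 to 141040656, plus strand) encodes ATGL, the lipase that takes the first fatty acid off triacylglycerol. It had 308, 288, 325, 317 and 283 CPM in MLPKO and 275, 254, 296, 335 and 261 CPM in MLPKO-cRADKO. Most MLPKO-cRADKO mice were at the lower end, yet mouse 4 of that group had the highest level of all. The log2 fold change was −0.10 (standard error 0.08, 95% interval −0.27 to 0.08, edgeR adjusted *P* = 0.527), and it was −0.16 without MLPKO-cRADKO mouse 4 and −0.0551 without MLPKO-cRADKO mouse 2.

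Both acyltransferases that finish triacylglycerol synthesis were counted in every heart. *Dgat1* (chromosome 15, 76385083 to 76396476, minus strand, overlapping *Hsf1* on the other strand) re-esterifies fatty acids at the endoplasmic reticulum and had 15.1, 15.6, 20.1, 16.0 and 17.5 CPM in MLPKO and 13.5, 14.9, 14.1, 16.5 and 15.5 CPM in MLPKO-cRADKO. Its log2 fold change was −0.18 (standard error 0.09, 95% interval −0.38 to 0.02, edgeR adjusted *P* = 0.281), and −0.0996 without MLPKO mouse 3, its highest mouse. *Dgat2* (chromosome 7, 98802491 to 98831991, minus strand), which can act on the droplet itself, had 129.5, 132, 285, 219.8 and 118 CPM in MLPKO and 232, 129, 178, 319.8 and 234 CPM in MLPKO-cRADKO. *Dgat2* varied most among mice of a genotype of the 8 members tested, with a coefficient of variation of 41.1% in MLPKO and 32.6% in MLPKO-cRADKO, against 8.40% and 8.73% for *Cidea*. With a log2 fold change of 0.31 (standard error 0.28, 95% interval −0.30 to 0.91, edgeR adjusted *P* = 0.570), *Dgat2* had the widest interval of the 8 members, and its log2 fold change was 0.55 without MLPKO mouse 3 and 0.13 without MLPKO-cRADKO mouse 4.

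**Figure D4:**
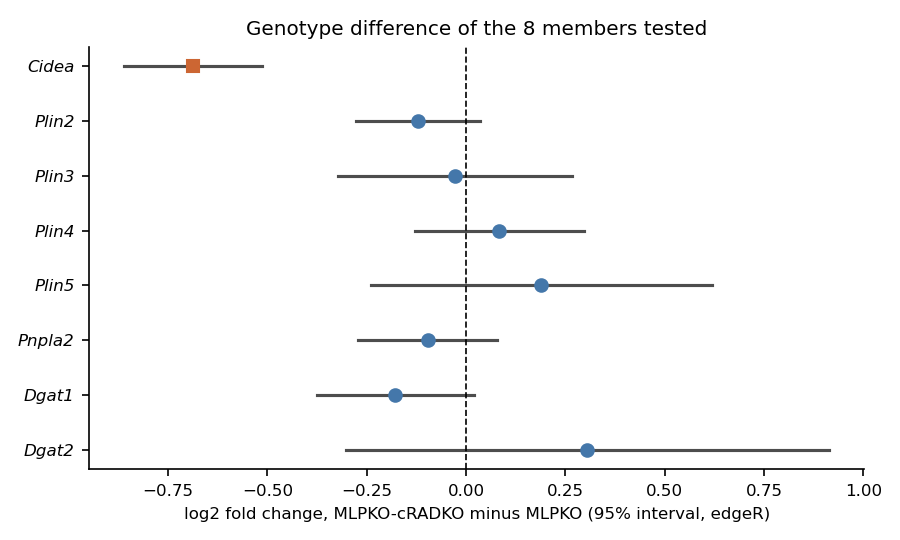
Log2 fold change (MLPKO-cRADKO minus MLPKO, horizontal axis) with its 95% interval from edgeR for the 8 members with enough counts, 5 mice per genotype. *Cidea* (orange square), which was chosen by this contrast, lies at −0.69, and the intervals of the other 7 (blue circles) include 0, from −0.18 for *Dgat1* to 0.31 for *Dgat2*.

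Members were also compared with each other among mice of a genotype. Over the 28 pairs of the 8 tested members, Pearson's *r* on genotype-centred log2 CPM was above 0 in 21 pairs, and no pair passed after adjustment (two-sided exact permutation test within genotype). On ranks, a measure added after seeing the data, 3 pairs passed. *Plin4* and *Pnpla2* had *r* = 0.849 (permutation *P* = 0.0101, adjusted *P* = 0.094) and rho = 0.891 (adjusted permutation *P* = 0.0486). *Plin5* and *Pnpla2* had *r* = 0.492 (permutation *P* = 0.00889, adjusted *P* = 0.094) and rho = 0.842 (adjusted permutation *P* = 0.0156). *Plin4* and *Dgat2* had *r* = 0.775 (permutation *P* = 0.00694, adjusted *P* = 0.094) and rho = 0.806 (adjusted permutation *P* = 0.0486). On ranks, the lipase transcript was thus high in the mice in which the transcripts of these 2 perilipins were high. Without the 2 mice farthest from the median of the first gene, *r* was 0.759 (permutation *P* = 0.0611), 0.724 (permutation *P* = 0.0139) and 0.592 (permutation *P* = 0.132) for the 3 pairs in this order. *Plin3* and *Plin5* had *r* = 0.844 (adjusted permutation *P* = 0.140), which was 0.413 without the 2 mice, MLPKO mouse 2 being one of them. *Cidea* stood outside these pairs, with *r* between −0.155 and 0.312 against the other 7 members.

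**Figure D5:**
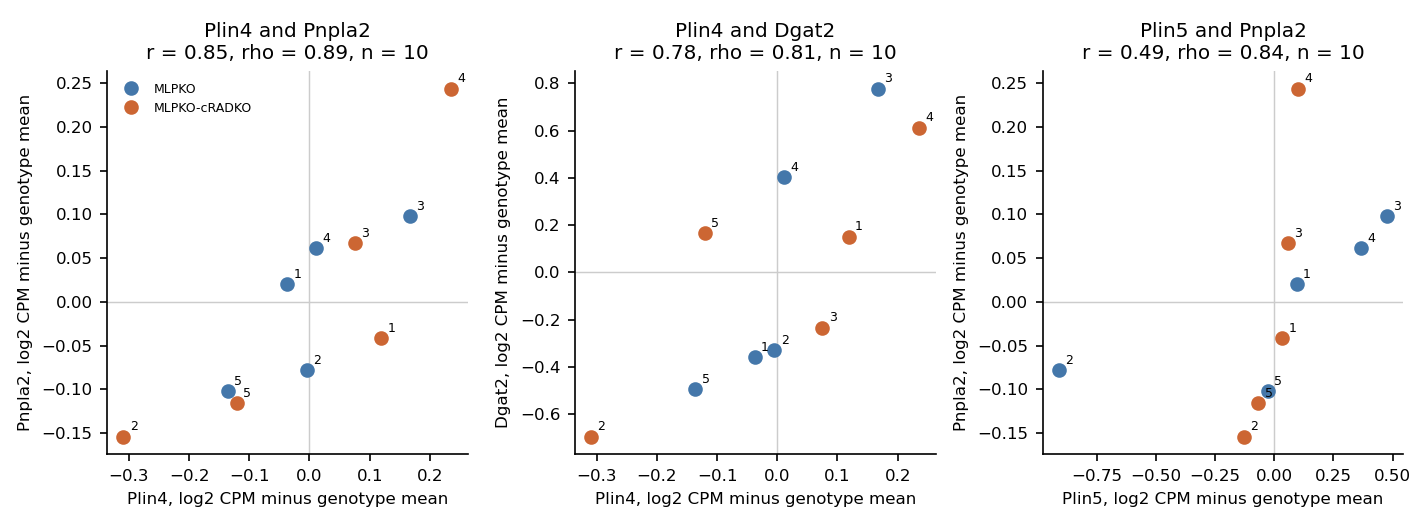
Level of one gene against another in each mouse for the 3 pairs that passed on ranks, both axes as log2 CPM minus the mean of the mouse's genotype (MLPKO blue, MLPKO-cRADKO orange, numbers are mice). Points rise from lower left to upper right for *Plin4* with *Pnpla2* (rho = 0.89), *Plin4* with *Dgat2* (rho = 0.81) and *Plin5* with *Pnpla2* (rho = 0.84), and MLPKO mouse 2 lies far to the left in the last.

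The promoters of *Plin4*, *Plin5* and *Pnpla2* are shown because these genes form the pairs with the highest rank correlations. RefSeq windows of 300 bases, 250 before and 50 after the start of the gene, were taken on GRCm38.p6, an older build than the GRCm39 of the counts, and 7 of the 10 members matched, with 9 windows. *Cidea*, *Dgat1* and *Dgat2* had none in the table. Capitals mark matches on either strand to AGGTCA (the half-site of nuclear receptors such as the PPARs), CACGTG (an E-box), CCAAT and GGGCGG (a GC box), and the marked matches do not overlap each other. The windows are chr17:56109733-56110032 (minus strand) for *Plin4*, chr17:56117499-56117798 (minus strand) for *Plin5* and chr7:141454938-141455237 (plus strand) for *Pnpla2*, each written 5′ to 3′ along the gene.
Plin4: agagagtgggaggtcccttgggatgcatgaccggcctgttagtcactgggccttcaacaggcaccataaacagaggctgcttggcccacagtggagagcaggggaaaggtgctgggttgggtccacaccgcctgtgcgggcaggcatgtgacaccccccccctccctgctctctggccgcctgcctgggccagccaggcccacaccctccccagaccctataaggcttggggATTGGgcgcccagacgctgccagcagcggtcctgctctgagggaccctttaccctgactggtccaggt
Plin5: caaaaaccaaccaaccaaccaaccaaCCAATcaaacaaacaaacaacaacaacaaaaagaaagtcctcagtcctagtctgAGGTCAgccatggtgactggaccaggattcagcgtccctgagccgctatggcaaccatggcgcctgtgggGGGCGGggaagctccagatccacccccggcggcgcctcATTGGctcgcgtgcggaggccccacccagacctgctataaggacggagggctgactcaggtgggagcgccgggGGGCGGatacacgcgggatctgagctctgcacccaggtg
Pnpla2: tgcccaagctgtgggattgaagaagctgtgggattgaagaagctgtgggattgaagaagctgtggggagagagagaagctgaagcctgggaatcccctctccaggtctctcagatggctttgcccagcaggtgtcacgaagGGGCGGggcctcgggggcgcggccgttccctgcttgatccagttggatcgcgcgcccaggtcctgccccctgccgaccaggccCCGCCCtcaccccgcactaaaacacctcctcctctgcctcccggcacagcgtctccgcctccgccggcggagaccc

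The sequence of *Plin4* held a CCAAT match 18 bases before the start. The *Plin5* window shown held CCAAT matches 224 and 62 bases and AGGTCA 170 bases before the start, with GC boxes 100 bases before it and 12 bases after it began. A second *Plin5* window, chr17:56117249-56117548, is not shown. It held AGGTCA 14 bases after its start began and GC boxes 239 and 53 bases before that start. The *Pnpla2* window held GC boxes 109 and 26 bases before the start and none of the other words. The windows shown were rich in G and C, at 65.0%, 60.3% and 65.3%. Of all 32851 RefSeq windows, 16.3% held AGGTCA, 7.15% CACGTG, 37.4% CCAAT and 35.7% GGGCGG, and among the 7 members 2 held AGGTCA (*Plin2* and *Plin5*), 1 CACGTG (*Plin2*), 4 CCAAT and 4 GGGCGG. The direct repeat that PPARs bind, in which a second AGGTCA follows the first after 1 base of any kind, was in 0.0396% of all windows and in 0 of the members. A match describes these letters in this window and no binding was measured.

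The rest of the droplet machinery showed few calls. Of 16 further genes of droplet coat and biogenesis, 14 were tested and 0 passed in either direction by edgeR (7 higher and 7 lower, median log2 fold change 0.04, against 0.01 over all genes). Without adjustment 2 had *P* under 0.05, DESeq2 called 1, *Cav1*, and limma-voom 0. Over all 13454 genes tested the same counts were 2899, 1298 and 340, the background for this list and those below. The smallest adjusted *P* in that list belonged to *Cav1*, the caveolin that shapes the membrane pits where fatty acids enter, at 171 CPM in MLPKO and 211 CPM in MLPKO-cRADKO (log2 fold change 0.30, edgeR adjusted *P* = 0.0808). *Fitm2*, which partitions new fat into droplets in muscle, followed at 0.23 (edgeR adjusted *P* = 0.155). *Bscl2* (seipin), which sits at the site where droplets bud, was at 0.18 (edgeR adjusted *P* = 0.471).

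Of 10 further genes of lipolysis all were tested, 8 were higher and 2 lower, 0 passed in either direction by edgeR, and the median log2 fold change was 0.08. Without adjustment 3 had *P* under 0.05 (*Lipe*, *Mgll* and *Ubxn4*), DESeq2 called 1, *Ubxn4*, and limma-voom 0. Among the 8 higher genes were *Lipe*, the hormone-sensitive lipase that follows ATGL (0.33, edgeR adjusted *P* = 0.213), and *Mgll*, the lipase of the last step (0.25, edgeR adjusted *P* = 0.211). Another of the 8 was *G0s2*, an inhibitor of ATGL (0.40, edgeR adjusted *P* = 0.237). *Abhd5*, the coactivator that PLIN5 holds away from ATGL, was at 36.6 and 38.3 CPM (0.07, edgeR adjusted *P* = 0.690). *Ubxn4* had the smallest adjusted *P* (−0.33, edgeR adjusted *P* = 0.109).

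Of 15 further genes of triacylglycerol synthesis, 11 were tested, 5 were higher and 6 lower, the median was −0.04, and 1 was called. *Lpin3*, a lipin that turns phosphatidic acid into diacylglycerol, had 9.71, 12.8, 9.20, 6.83 and 8.34 CPM in MLPKO and 7.15, 4.88, 5.46, 6.10 and 5.11 CPM in MLPKO-cRADKO. The genotypes overlapped in MLPKO mouse 4 and MLPKO-cRADKO mouse 1. *Lpin3* fell by 0.71 on the log2 scale (standard error 0.16, edgeR adjusted *P* = 0.0461), and the call was lost in 8 of the 10 fits without 1 mouse, with adjusted *P* up to 0.111 without MLPKO-cRADKO mouse 5. *Lpin1*, by far the most counted lipin of these hearts, was at 191 and 198 CPM (0.05, edgeR adjusted *P* = 0.879), and *Gpam*, which starts the pathway at mitochondria, at 385 and 392 CPM (0.03, edgeR adjusted *P* = 0.939).

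Droplet genes and the genes of fat oxidation share the PPAR nuclear receptors as known regulators. Of the 22 PPAR target genes given here 21 were tested, 18 were higher and 3 lower in MLPKO-cRADKO, and the median log2 fold change was 0.13, against 0.01 over all genes. The smallest edgeR adjusted *P* of these 21 was 0.247, for *Acadvl*, an enzyme of fat oxidation in mitochondria. *Pdk4*, a switch from glucose to fat that PPARs drive, was at 399 ± 68.9 and 547 ± 270 CPM (SD, n = 5 each), and *Angptl4* at 6.25 ± 3.97 and 8.60 ± 5.87 CPM (SD, n = 5 each). Neither passed (edgeR adjusted *P* = 0.450 and 0.692).

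Of 13 regulators of these genes all were tested, 7 were higher and 6 lower, the median was 0.02 and 0 passed in either direction by edgeR. Without adjustment 2 had *P* under 0.05, and DESeq2 called these 2, *Ppargc1a* and *Esrrg*, and limma-voom 0. *Ppargc1a*, the coactivator PGC-1α, was at 78.2 and 105.5 CPM (log2 fold change 0.43, edgeR adjusted *P* = 0.0785). *Esrrg*, an oestrogen-related receptor, was at 66.7 and 56.4 CPM, without overlap between the genotypes (−0.24, edgeR adjusted *P* = 0.0940). *Ppara* (0.12, edgeR adjusted *P* = 0.733) and *Pparg* (9.43 and 9.39 CPM, edgeR adjusted *P* = 0.989) lay within the spread between mice, and so did *Prdm16*, a factor of brown fat in which *Cidea* is known to be high (0.14, edgeR adjusted *P* = 0.297).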

How the data were processed

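Alignment by the authors used STAR and GRCm39, after FastQC, and featureCounts gave the deposited raw counts per gene, which are not normalized. Versions, strand and read pair settings are not given in the sources used here. Of 60676 rows, 3491 held no value, and 56629 of the other 57185 genes were named by GENCODE M39. From 1 to 20 counts, 73.7% to 80.3% of values were even in each library, so low counts hold steps of 2 and are less precise than single reads. No column was left unmapped.

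A gene entered the fit if 6 or more mice each had over 10 counts and its name was not of the Gm or Rik kind, after the study's methods. The exact name rule of the study is not known, and the study ranked fewer genes than the 13454 tested here. Differences between genotypes came from edgeR 4.0.16 (quasi-likelihood F test, TMM, R 4.3.3), with Benjamini-Hochberg adjustment over 13454 genes, with the standard error as the size of the log2 fold change over the root of F. On simulated counts of these genes with 200 changed by 1 on the log2 scale, 157 were recovered and 5.42% of calls were false. CPM used TMM library sizes, log2 CPM a prior count of 2, and TPM the union of exons. Relations within genotypes over all 10 mice used 14400 permutations, so that 6.94e-05 is the smallest *P* possible. With mice left out there were fewer permutations, and the smallest possible *P* was larger. No marker of fat cells passed the filter, so their summed counts gave the marker level. Python 3.11.15, numpy 2.4.6, pandas 2.3.3, scipy 1.17.1 and matplotlib 3.10.9 were used.

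The members and gene lists were chosen with earlier results of these data known. One item is not reported here and was left out of the counts of its list. Named genes are all members, up to 6 genes with the smallest adjusted *P* of each list and others described for their role after their values were seen (*Bscl2*, *Abhd5*, *Lpin1*, *Gpam*, *Angptl4*, *Ppara* and *Pparg*), all adipocyte markers, the 5 genes most like *Cidea*, *Rrad* and *Csrp3*. *Gnal* and *Chmp1b* were also named for their values. Groups come from the labels. Alternatives were DESeq2 1.42.0 (the authors' tool), limma-voom 3.58.1, other size factors, filters and dispersion, a replicate block, each mouse left out and other scales, and leaving out both mice that stood apart and rank correlations, which were chosen after seeing the data. Mouse numbers name different animals. The correlations of same-numbered mice across genotypes were between −0.044 and 0.152, so the numbers were no block. No replicate pair agreed within sampling noise (chi-square per degree of freedom of 29.0 or more).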

Additional observations from a re-analysis of the deposited data

Results flagged for a closer look

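In 22 groups of 5 mice (10 members and the summed adipocyte markers, in each genotype), the gap from the highest or lowest mouse to its nearest neighbour was compared with the range of the group, and in 6 groups 1 mouse stood apart (critical ratio 0.71), 3 mice in all. That ratio is set for 1 in 20 groups of independent, normally distributed values. *Cidec*, *Plin1* and the summed markers lay near 0 in most mice and the groups share mice, so that the count of groups is a description. MLPKO-cRADKO mouse 3 accounts for 4 of the 6 groups. It was the highest of its genotype for *Cidec* at 10.8 CPM (others 0 to 0.0598), for *Plin1* at 9.01 CPM (others 0 to 0.0445), for *Plin2* at 49.7 CPM (others 39.8 to 42.4) and for the summed adipocyte markers at 111 CPM (others 0 to 1.05). MLPKO mouse 5 was the highest MLPKO mouse for the summed adipocyte markers at 1.46 CPM (others 0 to 0.355). MLPKO mouse 2 was the lowest MLPKO mouse for *Plin3* at 80.2 CPM (others 126.0 to 136).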

How the results depend on the processing

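The 7 members tested other than *Cidea* stayed above the threshold in all 20 alternative fits of the genotypes. The count of genes called over the whole table moved from 369 to 1298 with DESeq2 and to 159 without both mice that stood apart, and ranged from 47 (without MLPKO mouse 5) to 826 (without MLPKO mouse 4) when each mouse was left out. It was 281 with the mouse number as a replicate block, a pairing that the animals do not share. Same-numbered mice were most alike for 2 of the 5 numbers. The block also ended the calls of *Lpin3* (adjusted *P* = 0.0745) and *Ctif* (0.0859). The sign of *Plin3* turned to 0.0263, 0.0084, 0.0173 and 0.0197 without MLPKO mouse 3, MLPKO mouse 5, MLPKO-cRADKO mouse 1 and MLPKO-cRADKO mouse 2 (range −0.142 to 0.026). Members that followed the adipocyte markers went from 1 to 0 with *Adipoq* alone, without the 2 farthest mice and by Spearman's rho, and ranged from 0 to 3 with each mouse left out (3 without MLPKO mouse 5, 2 without MLPKO-cRADKO mouse 1). Pairs of members went from 0 to 3 by Spearman's rho and ranged from 0 to 2 with each mouse left out (2 without MLPKO mouse 2). The causes were not tested. The log2 of the summed CPM as marker level was not run apart, since it is the level used here. *Cidec* and *Plin1* were too low in 9 mice for any genotype comparison at this depth.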

Other observations

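The 12 other tested genes within 500 kb of *Cidea* on either side had log2 fold changes between −0.655 and 0.486, and 0 were called by edgeR (smallest adjusted *P* = 0.240, for *Chmp1b*). The nearest in size to the difference of *Cidea* was *Gnal*, at 0.701 and 0.441 CPM (log2 fold change −0.65, edgeR adjusted *P* = 0.527).

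Over the 10 mice, the 5 genes with the highest Pearson's *r* to *Cidea* on genotype-centred log2 CPM, of 13454 genes, were *Gas5* (0.960), a host gene of small nucleolar RNAs, *Rpl17* (0.914), a ribosomal protein gene, *Ctif* (0.910), a translation factor gene, *Jak2* (0.906), a cytokine receptor kinase gene, and *Ism1* (0.903), which encodes a secreted protein. These values are the highest of many and share the libraries. *Gas5* stood at 4.56 and 4.92 CPM and *Rpl17* at 149.8 and 153 CPM in MLPKO and MLPKO-cRADKO. Of the 5, *Ctif* was called between the genotypes, and it was higher in MLPKO-cRADKO (10.8 and 13.7 CPM, log2 fold change 0.35, edgeR adjusted *P* = 0.0430), a call lost in 7 of the 10 fits without 1 mouse, with adjusted *P* up to 0.0947 without MLPKO-cRADKO mouse 5.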
